A study of Drosophila melanogaster with 3 samples.

Results

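The cytochrome P450 genes of *Drosophila melanogaster* were examined in late pupal wings. Members were chosen by gene symbol alone: a probe set with a single symbol of the P450 form (Cyp, a family number, a subfamily letter and a gene number), or with the symbol of a Halloween P450, qualified, so the cyclophilins Cyp1 and Cyp33 were not members. Where a gene had several such probe sets, the one with the highest mean log2 signal was used. This gave 86 genes out of 11982 named genes, measured by 89 probe sets. Wings came from pupae of the wild-type strain Oregon R, grown at 25 C and dissected roughly 80 h APF (hours after puparium formation), and each RNA extraction used a batch of 40 flies. Each of 3 biological replicates was hybridised to 1 Affymetrix array, and all 3 arrays form a single group with no treatment and no control. Stage was judged by eye from wing pigmentation, and the labels used here give no sex. Sequences of the genes or probes were not used here.

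P450 enzymes are haem proteins that insert oxygen into small lipophilic substrates with electrons passed on by reductases or, in mitochondria, by ferredoxins. Insect P450 genes fall into 4 clans. The CYP2 and mitochondrial clans hold the Halloween enzymes, which build the moulting hormone ecdysone and convert it to 20-hydroxyecdysone. The CYP4 clan holds Cyp4g1, the oenocyte enzyme that makes the final hydrocarbons of the waterproof cuticle surface. The CYP3 clan, and parts of the CYP4 and mitochondrial clans, contain the enzymes best known for insecticide and plant toxin metabolism.

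With no contrast between groups, each gene was set against a level measured on the same array: the 95th percentile of 85 genes of the antenna (odorant receptors), the eggshell and the male accessory gland. That reference level was 6.81, 6.78 and 6.59 on the log2 scale on replicates 1, 2 and 3. A gene is called above it at an adjusted p below 0.05 in limma's one-sided moderated test, with Benjamini-Hochberg adjustment over all 11982 genes. Of the 85 reference genes, Fcp3C, listed as an eggshell gene, was itself called (7.98 ± 0.18, SD, n = 3). The 11 cuticle epithelium markers were all above the level, among them grh (14.02 ± 0.08), kkv (10.82 ± 0.21) and Ddc (14.30 ± 0.10). This list was chosen with earlier results of these data known, so its count is not a check of the level. Signals of different probe sets reflect probe properties too, so their order is not an order of transcript abundance. In whole wings, fewer cells of a type and less RNA per cell cannot be told apart.

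The P450 family, like the named genes as a whole, was divided between many genes below the level and a smaller set far over it. Of 86 members, 33 were above the reference level (38.4%), against a background of 45.3% of all named genes. The median member lay 0.46 below the level (log2 difference of -0.46), against 0.09 over it for the median named gene. Signals below the level on all 3 arrays were found for 42 members (48.8%), against 43.5% of all named genes. At least 4-fold over the level were 18 members (20.9%; background 29.3%) and at least 16-fold over it 10 members (11.6%; background 12.2%). At 16-fold the share of members was close to the background.

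The counts by clan stand beside the background of 45.3%. Of the CYP3 clan 20 of 37 genes were above the level (54.1%, median difference 0.74), of the mitochondrial clan 4 of 11 (36.4%, median -0.24), of the CYP4 clan 9 of 32 (28.1%, median -0.97) and of the CYP2 clan 0 of 6 by limma (0 also at an unadjusted p below 0.05). Within these clans, Cyp6 had 14 of 23 genes above the level, Cyp9 had 3 of 5, Cyp28 had 2 of 4, Cyp12 had 2 of 6, and Cyp4 had 8 of 22. None of the 6 Cyp313 genes was above it by limma (0 at an unadjusted p below 0.05), and all 6 were below the level on every array. The place of the CYP3 clan against the background turned with the reference: it was 12 of 37 genes (32.4%, against 33.3% of all named genes) with the 99th percentile and 13 of 37 (35.1%, against 37.3%) with eggshell and accessory gland genes alone. Both of these levels rest on a few of the highest reference genes. Fcp3C, itself called in these wings, was the highest of them on every array. Leaving out replicate 2 also brought the clan close to the background, at 16 of 37 genes (43.2%, against 42.6% of all named genes). Its share stayed higher without replicate 1 (51.4%, against 42.6%) and without replicate 3 (48.6%, against 42.6%). These counts are descriptions, and the differences between clans were not tested.

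The ecdysone P450 genes were not above the level in the late pupal wing. Of 5 measured Halloween genes and Cyp18a1, the enzyme that inactivates ecdysteroids by 26-hydroxylation, limma called 0 of 6, with 0 at an unadjusted p below 0.05. Their median difference was -0.71. Among all named genes 45.3% were called, with a median difference of 0.09. The remaining Halloween P450 was not analysed here.

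Those that act at the start of the pathway were low. spo had 6.33, 6.20 and 6.30 on replicates 1, 2 and 3 (mean 6.28 ± 0.07), below the level on every array, and its probe set is the only one among the members of a type that can hybridise to transcripts of more than 1 gene. Its paralog spok, the larval and pupal prothoracic gland enzyme, had 0.85, 5.25 and 4.66. The spok values show how far low signals scatter: all were below the level, yet they spanned over 4 log2 units.

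The mitochondrial hydroxylases that complete ecdysone were low as well. dib, the 22-hydroxylase, had 5.57, 6.10 and 5.63 (mean 5.77 ± 0.29), and sad, the 2-hydroxylase, had 4.36, 1.68 and 3.12 (mean 3.05 ± 1.34). Both genes were below the level on all arrays.

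The genes for 20-hydroxylation and for clearance lay at the level itself. shd encodes the 20-hydroxylase that works in peripheral tissues rather than in the gland. It had 6.56, 7.24 and 7.44 (mean 7.08 ± 0.46), a difference of 0.35 ± 0.27 (SE) with a limma adjusted p of 0.285. It was over the level on replicates 2 and 3 and under it on replicate 1, and its second probe set was lower, at 3.77, 6.10 and 5.64. Cyp18a1 had 6.46, 7.15 and 6.40 (mean 6.67 ± 0.42), over the level on replicate 2 only, and its second probe set had 2.73, 5.93 and 5.99. At this precision a low signal of shd or Cyp18a1 cannot be told from that of the reference genes.

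**Figure D1:**
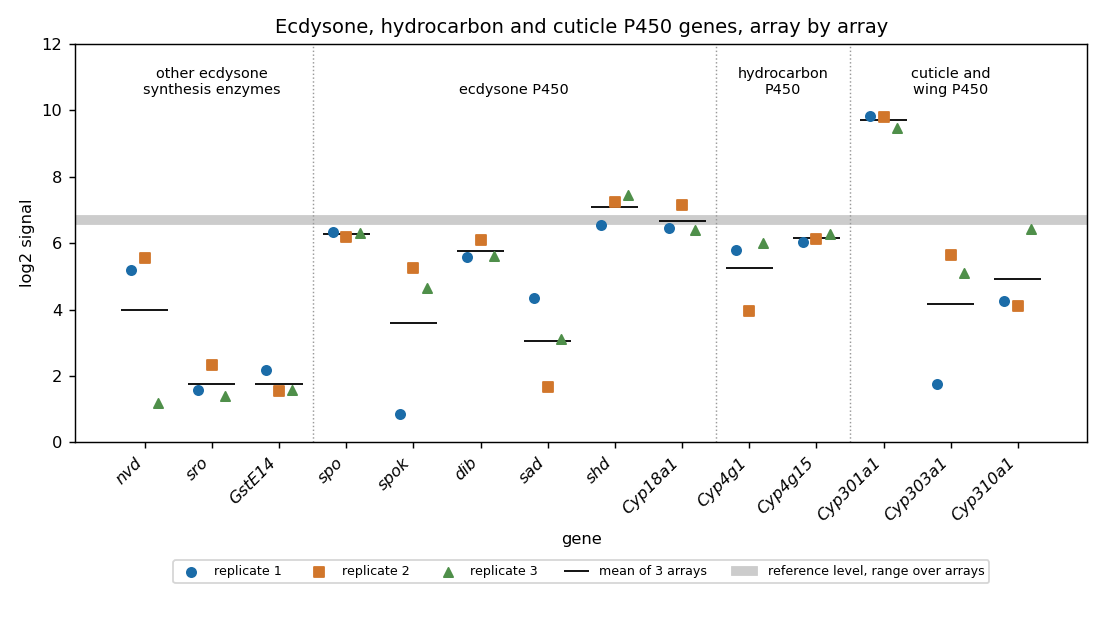
Log2 signal of genes with known roles in ecdysone, hydrocarbon and cuticle formation on the 3 arrays. Points are arrays, black lines are means, and the grey band spans the reference level of 6.59 to 6.81. Only Cyp301a1 lies over the band on all 3 arrays, and shd and Cyp18a1 straddle it.

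Other genes of ecdysone synthesis were called in 5 of 9 cases (55.6%; background 45.3%): the sterol transporter gene Npc1a (11.91 ± 0.07, n = 3), the lipid transfer gene Start1 (9.86 ± 0.10), and the regulators mld (11.25 ± 0.14), woc (10.30 ± 0.05) and ecd (7.83 ± 0.08). The other 4 were not called. nvd, which dehydrogenates cholesterol in the first step, had 5.20, 5.56 and 1.18, and sro, a dehydrogenase of the following steps, had 1.59, 2.32 and 1.39. The zinc finger gene ouib was at 5.29 ± 0.69, and Cyp6t3 is described with its neighbours. GstE14 (noppera-bo), a member of the glutathione transferase list that is required for ecdysone synthesis, was at 1.77 ± 0.35.

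Of the 4 genes for ecdysone uptake, export and oxidation 3 were called, beside the background of 45.3%. Oatp74D, the ecdysone importer, was at 11.97 ± 0.16 (n = 3), Atet, an exporter, at 9.72 ± 0.62, and E23, an ABC transporter, at 9.18 ± 0.22. The ecdysone oxidase gene Eo was not called (4.11 ± 1.64). Of 6 prothoracic gland markers only mld was called, and the other members, nvd, sro, tor, ouib and spok, were below the level on all arrays.

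Both hydrocarbon P450 genes were below the level. Cyp4g1 had 5.78, 3.97 and 6.01 (mean 5.25 ± 1.12), and its paralog Cyp4g15 had 6.05, 6.12 and 6.27 (mean 6.15 ± 0.11). Neither exceeded the level on any array. In the wider hydrocarbon synthesis list 6 of 14 genes were above the level (42.9%; background 45.3%; median difference -0.46). The 4 called members with the largest differences were wat (14.19 ± 0.08), the elongase gene bond (13.92 ± 0.07), the desaturase gene Desat1 (12.49 ± 0.12) and ACC, acetyl-CoA carboxylase (10.59 ± 0.35). FASN2 (5.12 ± 1.28), eloF (5.97 ± 0.77) and FarO (3.82 ± 1.59), all known from oenocytes, were not called. Of 7 oenocyte markers bond and spidey (7.74 ± 0.21) were above the level.

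Among P450 genes tied to cuticle or wing, Cyp301a1 alone was above the level. Cyp301a1, a mitochondrial P450 required for a sound adult cuticle, had 9.82, 9.81 and 9.47 (mean 9.70 ± 0.20), 2.97 ± 0.13 (SE) over the level (limma adjusted p = 0.00017), and it was called under all 13 alternative settings. Cyp303a1, which acts in the development of external sensory organs, had 1.77, 5.63 and 5.11, and Cyp310a1, studied in Wingless signalling in the larval wing disc, had 4.27, 4.12 and 6.43. Both stayed below the level on all arrays, with SDs of 2.10 and 1.29.

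The mitochondrial clan held 3 further called genes. Cyp49a1 had 10.10, 9.65 and 9.97 (mean 9.91 ± 0.23; difference 3.18; limma adjusted p = 0.000279). Cyp12e1 had 8.40, 8.06 and 8.28 (mean 8.25 ± 0.17; difference 1.52), and its second probe set gave 8.08, 8.04 and 8.07, so both probe sets put it over the level, but with the 99th percentile as reference it was not called (0.48). Cyp12a4, whose overexpression gives lufenuron resistance, had 7.87, 7.44 and 8.18 (mean 7.83 ± 0.37; difference 1.10; limma adjusted p = 0.0155), and its call was lost without replicate 1 (difference 1.12). It was also lost with the 99th percentile (0.06), with eggshell and accessory gland genes alone (0.33) and with the median plus 1 (0.77) as reference. Not called were Cyp12b2 (6.49 ± 0.16), Cyp12a5 (5.90 ± 0.39), Cyp12d1-d (5.39 ± 0.85) and Cyp12c1 (5.02 ± 0.49). The ferredoxin genes that serve this clan were measured in the electron transfer list, where Fdx2 was above the level (9.50 ± 0.10) and Fdx1 was not (7.21 ± 0.29).

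In the CYP4 clan, 7 genes lay at least 4-fold over the level and the rest close to it or below. Cyp4c3 had 13.50, 13.03 and 13.34 (mean 13.29 ± 0.24; difference 6.56), and Cyp4s3 had 13.17, 13.00 and 13.14 (mean 13.10 ± 0.09; difference 6.37; limma adjusted p = 9.01e-05, the lowest of the family). Cyp4d20 had 12.15, 12.44 and 12.38 (mean 12.32 ± 0.16; difference 5.59). All 3 genes were far over the level on every array, with ranges between arrays that were small beside that distance.

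The other strongly called CYP4 genes were Cyp4p1 (11.59 ± 0.05, n = 3), Cyp4e2 (10.81 ± 0.42), Cyp4p2 (10.75 ± 0.20) and Cyp4d2 (10.59 ± 0.25). Cyp4e2 had the largest SD of any called member, with 11.18, 10.35 and 10.91. Cyp311a1, known from lipid metabolism of the midgut, was at 7.48 ± 0.20 (difference 0.75; limma adjusted p = 0.0106), and Cyp4ae1 was at 7.39 ± 0.15 (difference 0.66; limma adjusted p = 0.0132). These weak calls were lost without replicate 1 (differences 0.67 and 0.62) and without replicate 3 (0.73 and 0.62), and the count of the clan was then 7. Cyp4e1 (6.81 ± 0.55) and Cyp4ad1 (6.81 ± 0.92) lay at the level without a call, and Cyp313a1 (6.26 ± 0.29), Cyp4d14 (6.22 ± 0.82) and Cyp4d8 (5.11 ± 1.80) below it. The 16 members of the clan not named by rule had mean log2 signals from 2.54 to 6.22, none of them called.

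The CYP3 clan held 20 of the 33 called genes. Cyp6a20, known for its effect on male aggression, had 13.18, 13.36 and 13.79 (mean 13.45 ± 0.31), 6.72 ± 0.22 (SE) over the level (limma adjusted p = 0.000113), the largest difference among the members. Cyp9f2 had 11.62, 11.54 and 11.98 (mean 11.71 ± 0.23; difference 4.98), and Cyp6a9 had 11.33, 11.83 and 11.62 (mean 11.59 ± 0.25; difference 4.86). Each of these genes exceeded the level by more than 4 log2 units on every array.

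Cyp6a17, a gene of temperature preference behaviour, had 10.85, 11.29 and 10.84 (mean 10.99 ± 0.26; difference 4.26). Cyp6a21 was at 10.62 ± 0.24, and Cyp6g1, whose overexpression gives resistance to DDT and neonicotinoids, had 10.33, 10.55 and 10.17 (mean 10.35 ± 0.19; difference 3.62). Next by difference were Cyp9c1 (9.21 ± 0.22), Cyp28d2 (8.80 ± 0.08), Cyp9b2 (8.76 ± 0.13), Cyp6a14 (8.59 ± 0.16), Cyp6u1 (8.57 ± 0.26) and Cyp6a2 (8.44 ± 0.15), a gene also linked to DDT resistance. All of them were called under each of the 13 alternatives.

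A group of 8 further CYP3 genes was called with differences between 0.56 and 1.41, and each of these calls was lost under at least 1 alternative. They were Cyp6a19, Cyp28d1, Cyp6v1, Cyp317a1, Cyp6d4, Cyp6a22, Cyp6w1 and Cyp6a13, named after their values were seen. Without replicate 2 the calls of Cyp28d1 (1.18), Cyp6a22 (0.69), Cyp6w1 (0.70) and Cyp6a13 (0.54) were lost, and the count of the clan was 16. Cyp6a13 was also lost without replicate 1 (0.63) and without replicate 3 (0.50), and Cyp317a1 without replicate 1 (0.75) and without replicate 3 (0.73). Cyp6d5 had 6.72, 8.03 and 7.37 and was not called (limma adjusted p = 0.133), except without replicate 1 (1.01) and in 2 other settings. Cyp9h1 (6.75 ± 0.09), Cyp28a5 (6.40 ± 0.62), Cyp6a16 (6.27 ± 0.43) and Cyp6a8 (6.19 ± 0.78) were near the level without a call. The 10 remaining genes of the clan that were not called had means from 2.04 to 5.63.

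**Figure D2:**
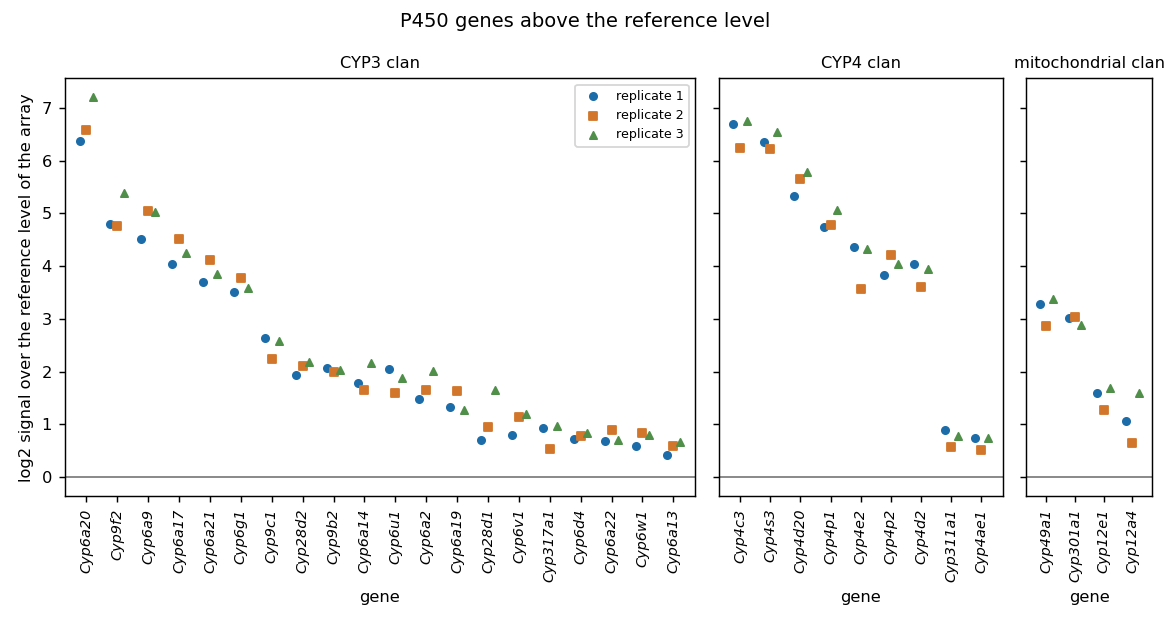
Log2 signal over the reference level of the same array (y axis) for the 33 P450 genes above it, by clan. Each gene has 3 points, 1 per array, and the horizontal line at 0 is the level. Differences run from 0.56 for Cyp6a13 to 6.72 for Cyp6a20, and every point shown lies over the line.

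Calls of neighbouring P450 genes were compared run by run, as a description. In the RefSeq annotation of Release 6, used here only for the order of protein-coding genes, 14 runs of directly adjacent P450 genes had at least 2 measured members. Every measured gene was called in 2 runs, none in 4, and some but not others in 8. The share of mixed runs among other adjacent genes was not computed. Of 42 measured genes next to another P450 gene, Cyp12d1-d with its unmeasured neighbour included, 20 were called (47.6%), and of 44 other members 13 were called (29.5%), beside the background of 45.3%. The other members included the whole CYP2 clan (0 of 6 called) and all 5 measured Halloween genes (0 called). Clan and adjacency are therefore not separated by these shares, and their difference was not tested.

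The longest run had 9 genes: Cyp6a22, Cyp6a17, Cyp6a23, Cyp6a19, Cyp6a9, Cyp6a20, Cyp6a21, Cyp6a8 and Cyp317a1. All but Cyp6a23 and Cyp6a8 were called. Cyp6a23, a close paralog of its neighbour Cyp6a17, had 6.87, 7.67 and 6.95, over the level on all 3 arrays but not called (limma adjusted p = 0.135). Cyp6a8 had 7.09, 5.76 and 5.72, over the level on replicate 1 only. Close paralogs such as these may share probe hybridisation, which the files used here do not resolve.

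Shorter runs were mixed, called throughout or uncalled throughout. Both genes were called in the runs of Cyp28d2 with Cyp28d1 and of Cyp6a14 with Cyp6a13. In other runs the calls were mixed. Cyp4p1 and Cyp4p2 were called beside Cyp4p3, which was below the level on all arrays at 4.97, 5.61 and 5.10. Cyp6g1 was called beside Cyp6g2 (3.74, 6.55 and 4.48) and Cyp6t3 (5.96, 2.94 and 3.47), a gene once placed in ecdysone synthesis. Cyp4e2 was called between Cyp4ad1 and Cyp4e1, Cyp9b2 beside Cyp9b1 (5.63 ± 0.50), and Cyp12a4 beside Cyp12a5. The 4 runs without a call were Cyp309a1 and Cyp309a2, the 3 Cyp4ac genes, Cyp316a1 and Cyp4d8, and 3 of the Cyp313a genes.

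**Figure D3:**
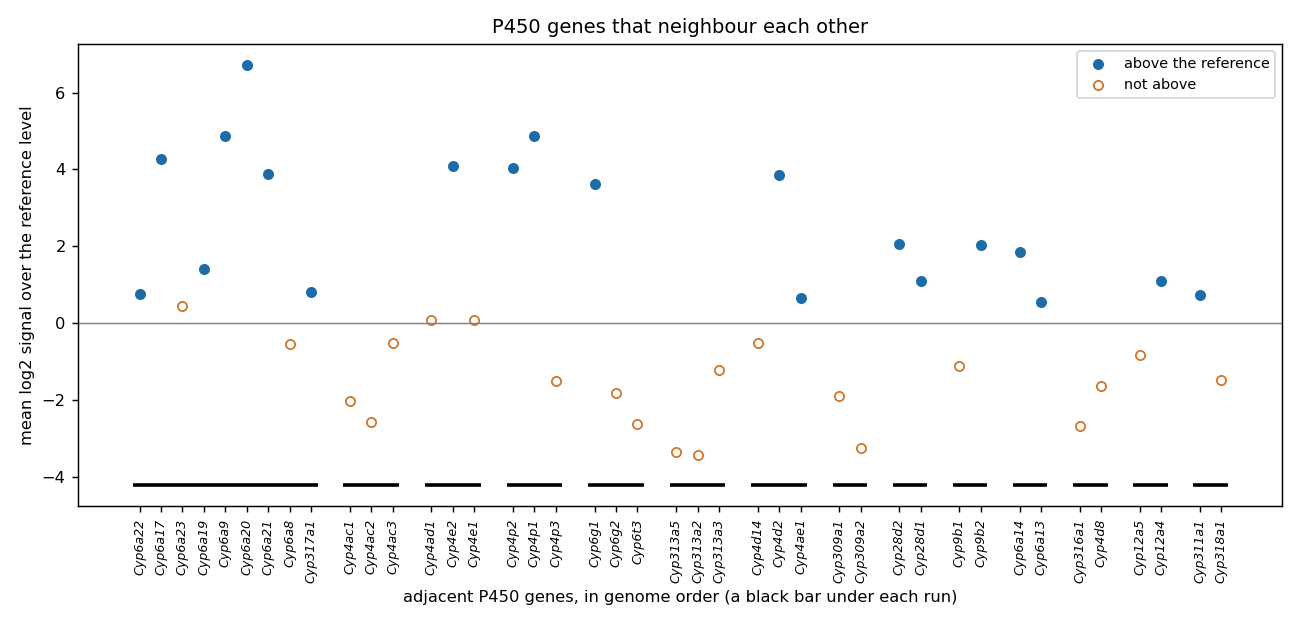
Mean log2 signal over the reference level (y axis) for measured P450 genes that neighbour each other, in genome order, with a black bar under each of 14 runs. Filled points are above the level and open points are not. Called and uncalled genes share 8 of the runs, and signals of different probe sets are not to be ranked.

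The spread between arrays is part of the test, so the SDs of called and uncalled members are given as a description only. The median SD over 3 arrays was 0.20 for the 33 called members, against 0.16 for all 5424 called genes, and 29 of the 33 had an SD below 0.3. For the 53 members not called it was 0.66, against 0.74 for all 6558 uncalled genes, and 13 of them had an SD above 1, while spo (0.07), Cyp9h1 (0.09) and Cyp4g15 (0.11) had low SDs. Across the 86 members, Pearson's r was 0.899 between replicates 1 and 2, 0.921 between replicates 1 and 3 and 0.962 between replicates 2 and 3. Across all named genes the values were 0.931, 0.934 and 0.929. These are correlations across genes, which are not independent replicates.

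On replicate 2, most called Cyp6 genes were at their highest and most called CYP4 genes at their lowest. Of 14 called Cyp6 genes 10 had their highest signal on replicate 2, with a median deviation from the gene's mean of 0.14 there. For the whole CYP3 clan the pattern was weaker: of 20 called genes 11 were highest and 5 lowest on replicate 2 (median deviation 0.06). The called genes of the longest run, other than Cyp317a1, are among these Cyp6 genes. In that run 6 of 9 genes were highest on replicate 2, Cyp6a22, Cyp6a17, Cyp6a23, Cyp6a19, Cyp6a9 and Cyp6a21, whereas Cyp6a20 was highest on replicate 3. Of 9 called CYP4 genes 6 had their lowest signal on replicate 2, among them Cyp4c3, Cyp4e2 and Cyp4d2, with a median deviation of -0.10. Of the 4 called mitochondrial genes 3 were lowest there (median deviation -0.22). Among all called genes 37.0% were highest and 34.0% lowest on replicate 2, and their median deviation was 0.01. The pattern was seen first and described afterwards, with no test.

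Marker lists of the cuticle epithelium and of other tissues give a measure of how such signals varied on the same arrays. The median deviation on replicate 2 was -0.10 for the cuticle epithelium markers, -0.36 for the trachea markers, -0.18 for the muscle markers, 0.03 for the fat body markers and 0.10 for the Malpighian tubule markers. It was -0.0071 for the haemocyte markers, -0.10 for the neuron markers and 0.02 for the oenocyte markers. Summed signals on replicates 1, 2 and 3 were 192400, 159400 and 174900 for the cuticle epithelium list, 1633, 1938 and 1598 for the fat body list, and 11210, 13140 and 11630 for the Malpighian tubule list. The midgut markers, and all prothoracic gland markers but mld, were below the level on all arrays, so their values are not compared between arrays. So were 6 of 8 tubule markers, 3 of 7 fat body markers and some markers of each other list except the cuticle epithelium list. Medians of those lists therefore include low signals. Most of the tubule sum came from Best2 alone, with log2 signals of 13.24, 13.49 and 13.30. The part of these tissues in the array pattern of the P450 genes was not tested.

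**Figure D4:**
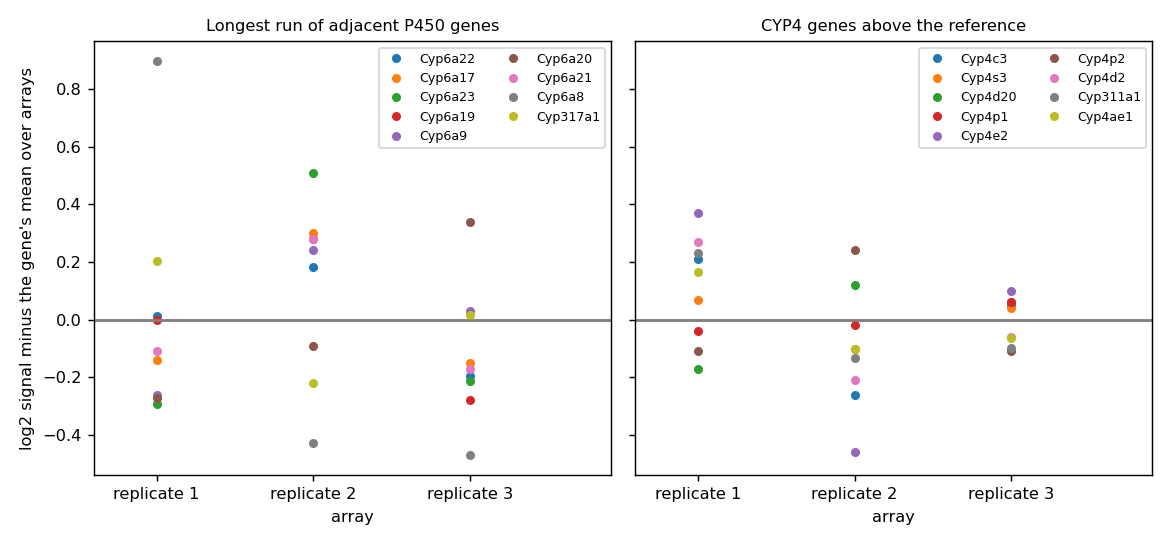
Log2 signal minus each gene's own mean over the arrays (y axis) on replicates 1, 2 and 3, for the 9 genes of the longest run (left) and the 9 called CYP4 genes (right). On replicate 2, 6 genes of the run are at their highest and 6 CYP4 genes are at their lowest.

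Many P450 genes of the CYP3 and CYP4 clans are known from fat body, midgut and Malpighian tubule, so markers of these tissues were read on the same arrays. Of 9 midgut markers 0 were called by limma, 0 had an unadjusted p below 0.05, and all were below the level on every array, with alphaTry at 3.88 ± 1.80 and Jon25Bi at 5.15 ± 1.46 (n = 3). Of 8 tubule markers Best2 (13.34 ± 0.13) and Picot (10.39 ± 0.14) were called, while NaPi-T (2.98 ± 0.43) and CAH14 (2.31 ± 0.61) were low. Of 7 fat body markers apolpp (9.36 ± 0.24), Lsp2 (8.88 ± 0.28), Fbp2 (8.37 ± 0.11) and Fbp1 (7.71 ± 0.04) were called, and Yp1 (3.41 ± 2.15), Yp2 (3.12 ± 1.22) and Yp3 (3.09 ± 0.11) were not. Haemocyte markers were called in 4 of 9 cases, neuron markers in 3 of 7, muscle markers in 4 of 6 and trachea markers in 4 of 5, beside the background of 45.3%. How much of the P450 signal came from fat body or haemocytes in the wing was not tested.

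Measured partners of the P450 enzymes were called at shares near the background of 45.3%. The reductase genes Cpr and dare were chosen for the electron transfer list but were not among its measured genes, so they were not analysed. Of 6 genes in the electron transfer list 3 were called (50%): Cyt-b5, a donor for microsomal P450 enzymes (13.20 ± 0.08, n = 3), Fdx2, and CG13893 (13.52 ± 0.12), whose place in the list is unsure. Cyt-b5-r (1.82 ± 1.43) and CG11257 (6.84 ± 0.61) were not called. Of 7 haem synthesis genes 4 were called (57.1%), Alas, which catalyses the entry step (10.85 ± 0.11), FeCH, ferrochelatase (9.62 ± 0.32), Pbgs (9.54 ± 0.35) and Coprox (7.50 ± 0.08). Uros1 (7.09 ± 0.45), Ppox (6.99 ± 0.37) and Uros2 (3.12 ± 0.32) were not.

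Genes of the list of P450 regulators were above the level in 7 of 8 cases (87.5%; background 45.3%). They included cnc, the fly Nrf2 (13.14 ± 0.26, n = 3), Hr39 (12.07 ± 0.11), tgo (11.59 ± 0.12) and the cnc partner maf-S (11.33 ± 0.14), with the inhibitor Keap1 at 7.32 ± 0.24 and the xenobiotic receptor gene Hr96 at 8.59 ± 0.40. svp was not called (5.79 ± 0.53). The call of Keap1 was weak (difference 0.60; limma adjusted p = 0.040). Calls of list genes outside the P450 family were not followed through the alternative settings.

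The other detoxification families were set beside the P450 genes. Glutathione transferase genes were called in 19 of 34 cases (55.9%, median difference 1.55), with GstD1 (14.69 ± 0.08), GstE12 (13.08 ± 0.07), GstE9 (12.94 ± 0.07) and GstE13 (12.21 ± 0.13) having the largest differences. GstD4 (1.91 ± 0.62) and GstD5 (2.54 ± 0.28) were not called. UDP-glycosyltransferase genes were called in 8 of 35 cases (22.9%, median difference -1.72), with Ugt302C1 (11.99 ± 0.06), Ugt37D1 (10.94 ± 0.22), Ugt35A1 (10.11 ± 0.10) and Ugt50B3 (9.82 ± 0.18) having the largest differences. The P450 share of 38.4% lay between these shares and below the background of 45.3%, and no test was made between the families.

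**Figure D5:**
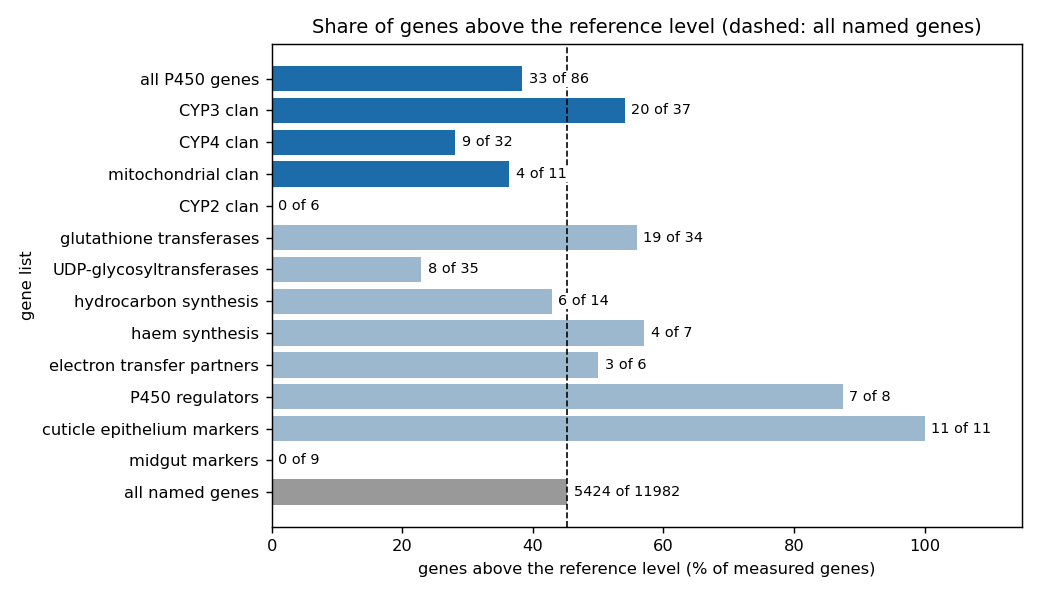
Percent of measured genes above the reference level (x axis) for the P450 family, its 4 clans, partner and detoxification lists, markers and all named genes. Numbers give called and measured genes, and the dashed line marks 45.3% for all named genes. With this reference level the CYP3 clan lies right of the line at 54.1% and the CYP4 clan left of it at 28.1%. Under the 99th percentile the CYP3 share was 32.4%, against 33.3% of all named genes, and without replicate 2 it was 43.2%, against 42.6%.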

How the data were processed

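Probe set signals of 3 arrays were used as deposited, as linear intensity values for 18952 probe sets. The authors' processing, per the submitters' processing notes, involved MAS5 and RMA, with no role or version given; every deposited intensity column had a trimmed mean of 500 after removal of 2% at each end, a feature of MAS5 scaling. The genome build is not given in the sources used here. No further normalization was applied, and log2 was taken with no pseudocount.

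Names came from the platform annotation (13647 probe sets with 1 symbol), and the entrez IDs of all 86 members had the same symbol in RefSeq, which lists 88 P450 symbols. limma 3.58.1 in R 4.3.3 (lmFit, eBayes; prior of 1.52 degrees of freedom and SD 0.32) was fitted to the distance of every gene, on the log2 scale, from the level of its own array. The reference held 56 odorant receptor genes and 29 eggshell or accessory gland genes. The number of arrays limits the precision, and p-values cover the spread between these samples.

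Role genes were given array by array. Of the other members, called genes were named up to 12 per clan by difference, and uncalled ones up to 6 per clan by unadjusted p. Of partner lists, the 4 largest called and up to 3 uncalled members were named; neighbours and further genes were named after their values were seen. Members and lists were chosen with earlier results of these data known. Reference, normalization, pseudocount, variance prior, probe set and replicate alternatives were tried. Figures were drawn with matplotlib 3.10.9 and tables made with numpy 2.4.6 and pandas 2.3.3 in Python 3.11.15.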

Additional observations from a re-analysis of the deposited data

How the results depend on the processing

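Under 13 alternatives the P450 count lay between 21 and 35 of 86 and that of all named genes between 3993 and 5709. With the 99th percentile as reference, 21 P450 genes were above it (24.4%; 33.3% of all named genes), 12 of the CYP3 clan and 2 of the mitochondrial clan. With eggshell and accessory gland genes alone, 13 CYP3 genes were above it. Leaving out 1 replicate gave 29 P450 genes in each case, 16 to 19 of the CYP3 clan, 7 to 9 of the CYP4 clan and 3 to 4 of the mitochondrial clan. The ecdysone P450 count and the CYP2 count stayed at 0 in every setting. Of 33 called members 21 kept their call in all settings, and 51 members were called in none.

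Genes near the level fell below it under references that gave a higher level. With the 99th percentile the differences were -0.29 for Cyp311a1, -0.23 for Cyp317a1, -0.38 for Cyp4ae1, -0.48 for Cyp6a13, -0.28 for Cyp6a22, -0.26 for Cyp6d4, -0.0010 for Cyp6v1 and -0.30 for Cyp6w1. With eggshell and accessory gland genes alone they were -0.022 for Cyp311a1, -0.11 for Cyp4ae1, -0.21 for Cyp6a13, -0.010 for Cyp6a22 and -0.028 for Cyp6w1. No paired analysis was possible because all 3 arrays belong to 1 group. Among the 53 uncalled members 13 had an SD above 1, so differences among low signals cannot be read from 3 arrays.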

Other observations

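A pair of probe sets with several symbols, which named no member, also bear on P450 genes. The probe set shared by Cyp12d1-d and Cyp12d1-p had log2 signals of 4.70, 5.73 and 3.35 on replicates 1, 2 and 3, below the reference level on every array, as was the probe set of Cyp12d1-d alone. The probe set shared by shn and Cyp6v1 had 10.50, 10.97 and 10.60, far over the level, whereas the probe set of Cyp6v1 alone had 7.61, 7.91 and 7.78. Which transcript gave the higher signal was not tested.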
